A study of Mus musculus with 8 samples.

Results

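This account concerns 33 genes of fatty acid oxidation in the full-thickness skin of mouse embryos, 23 of them mitochondrial, 9 peroxisomal and 1, Cpt1c, of the endoplasmic reticulum. Members were chosen by symbol, and a gene counted where a transcript cluster of the array carried that symbol alone. Of the 33, 31 had such a cluster and 30 were bright enough to test, out of 19938 named and 15174 tested genes on the array. Cpt1b and Ucp2 had no such cluster, so their expression was not analysed here, and Acaa1b lay below the brightness filter.

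The skin of 8 embryos at E17.5 was compared, all on a mixed C57BL6/SV129 background. In 4 of them, the controls, PPARgamma is labelled wildtype, and the other 4 carry the label PpargΔ/Δ, with PPARgamma null as the genotype. The latter are called the labelled nulls here. Each RNA came from an individual and was hybridised to its own Affymetrix whole-transcript array. The labels name no litter, sex, targeting construct or treatment, and p-values measure the spread between these RNAs. Values are deposited log2 values, and differences are the mean of the labelled nulls minus the mean of the controls, with n = 4 in each group throughout.

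Fatty acid oxidation shortens acyl-CoA chains by repeated rounds of dehydrogenation, hydration, a further dehydrogenation and thiolytic cleavage. Long chains enter mitochondria as carnitine esters, while peroxisomes shorten very long and branched chains and make hydrogen peroxide in the first step. PPARgamma is the nuclear receptor that drives adipocyte differentiation. Many oxidation genes are known targets of its relative PPARalpha, and some of these are also expressed in brown fat and muscle, so that full-thickness skin averages them over epidermis, follicles, dermis, fat and the muscle below.

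Array medians lay between 6.93 and 6.96. The Pparg cluster read 8.79, 8.88, 9.04 and 9.06 in the controls and 9.14, 9.19, 9.19 and 8.98 in the labelled nulls, so it was no lower in the latter. The labels do not say which exons are lost, and probes beyond them would check nothing. Directions are therefore given by label. White adipocyte markers separated the groups: 7 of 10 listed genes were tested, all 7 lay below control, with a median difference of -0.88, and 4 of them passed limma's adjusted threshold. In bulk tissue, fewer cells of a type and less RNA per cell cannot be told apart.

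No such separation was seen for the oxidation genes. None of the 30 tested members passed a limma adjusted p of 0.05 in either direction, where 17 of 15174 genes (0.112%) passed as lower and 1 (0.00659%) as higher. The adjusted p was at least 0.9995 for each member. At an unadjusted limma p of 0.05, 2 members lay lower, Acads and Decr1, and 0 lay higher, beside 2.10% and 1.51% of all tested genes (3.61% in both directions). Of the 30, 15 lay below control and 15 above, and 50.3% of all tested genes lay below. The median difference was -0.0070 over the members and -0.0006 over all tested genes. The largest difference of a member was 0.18 in size, that of Acadl.

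These arrays set bounds on what was missed. The 95% intervals of the 30 differences, taken gene by gene, reached down to -0.41 for Acadl and up to 0.46 for Pdk4. For 27 members the interval lay wholly between -0.3 and 0.3, and for all 30 it excluded a fall of 0.5. These bounds hold for the measured values of whole skin, not for a single cell type. Ucp3 and Acox2 were dim, with control means of 6.01 and 5.88 beside a brightness filter at 5.62 to 5.67. That filter is a percentile of each array and not a detection limit, and Acaa1b read as low as 3.90. How much lower Ucp3 and Acox2 could have read was not tested. Standard errors ran from 0.0455 to 0.149, with a median of 0.0678.

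**Figure D1:**
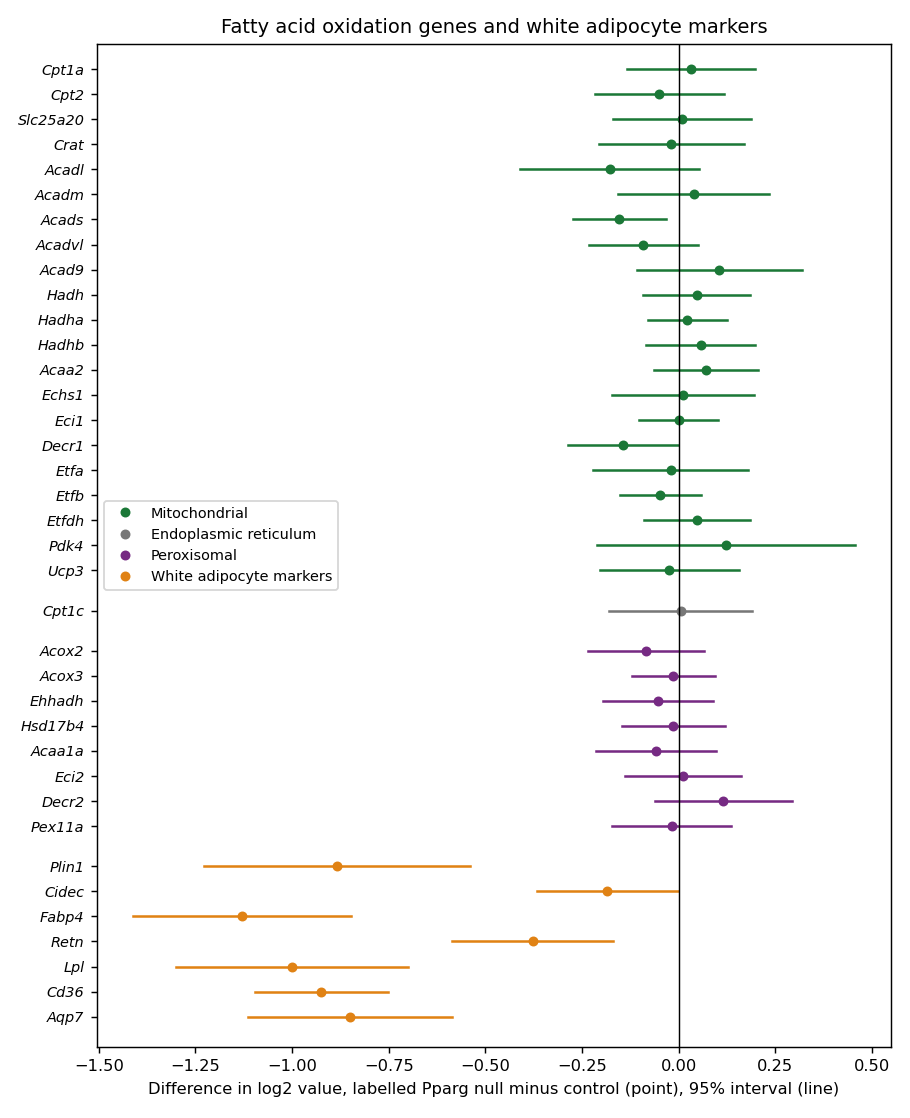
Difference in log2 value between the labelled nulls and control (points) with its 95% interval from limma (lines) for the 30 tested members, by compartment, and for 7 white adipocyte markers. The members lie between -0.18 and 0.12, and the adipocyte markers lie between -1.13 and -0.18.

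The mean level of the mitochondrial and of the peroxisomal members differed little between the groups. Averaged over the 21 tested mitochondrial members, the log2 value was 9.19 ± 0.03 on control arrays and 9.18 ± 0.05 in the labelled nulls (SD, n = 4), a mean difference of -0.0083. Of these 21, 9 lay below control and 12 above. Over the 8 tested peroxisomal members the values were 7.83 ± 0.03 and 7.81 ± 0.04, a mean difference of -0.015, with 6 members below control and 2 above. The sign of neither mean was stable: without 1 array the mitochondrial mean ran from -0.027 (without labelled-null array 3) to 0.016 (without labelled-null array 1), and the peroxisomal mean from -0.026 (without control array 4) to 0.0019 (without labelled-null array 3). Both mean differences were smaller than the spread between arrays of a group, pooled at 0.0455 for the mitochondrial and 0.0339 for the peroxisomal mean. The highest and lowest array means of the mitochondrial members, relative to all 8 arrays, were both on labelled nulls, at 0.052 on array 3 and -0.078 on array 1.

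**Figure D2:**
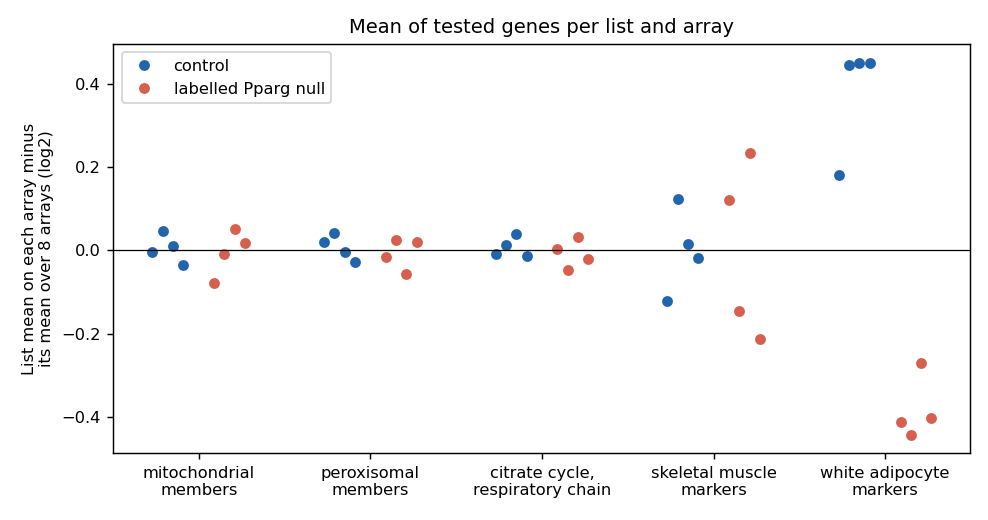
Mean of the tested genes of each list on each array, minus its mean over the 8 arrays (log2), for control arrays and labelled nulls, with arrays 1 to 4 from left to right. The groups overlap for the mitochondrial and peroxisomal members, the citrate cycle and respiratory chain, and skeletal muscle, while the white adipocyte markers lie at 0.18 to 0.45 on control arrays and -0.44 to -0.27 on the others.

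The carnitine shuttle carries long-chain acyl groups into the mitochondrion. Cpt1a, which makes the acylcarnitine at the outer membrane and is the main control point of the pathway in many tissues, read 8.77, 8.64, 8.66 and 8.85 on the control arrays. On the labelled nulls it read 8.70, 8.62, 8.88 and 8.85. The groups overlapped almost fully, and the difference was 0.032 with a 95% interval of -0.13 to 0.20.

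Slc25a20, which exchanges acylcarnitine for carnitine across the inner membrane, read 8.29, 8.35, 8.22 and 8.03 in the controls and 8.13, 8.37, 8.16 and 8.25 on the other arrays. Its difference was 0.0080. Cpt2, which returns the acyl group to coenzyme A in the matrix, read 8.91, 8.88, 8.92 and 8.68 in the controls and 8.63, 8.81, 8.86 and 8.88 in the labelled nulls. Control array 4 and labelled-null array 1 were the low arrays of Cpt2, so that each group held 1 of them. Its difference was -0.050 with an interval of -0.22 to 0.12. Crat, which forms acetylcarnitine from acetyl-CoA, differed by -0.019. Cpt1c, a relative of Cpt1a known from the endoplasmic reticulum of neurons, differed by 0.0045.

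Acyl-CoA dehydrogenases open each round, and each is specialised for a range of chain lengths. Acads, the dehydrogenase of short chains, was the 1 member whose groups did not overlap. It read 8.94, 8.95, 8.76 and 8.84 in the controls and 8.72, 8.72, 8.74 and 8.69 in the labelled nulls. The difference of -0.15 (SE 0.0537, 95% interval -0.27 to -0.033) was a 1.11-fold lower level. An exact permutation test (two-sided) gave p = 0.0286, which is the lower limit for 4 against 4, and the limma p was 0.0176 before and 0.9995 after adjustment. Among all tested genes 372 (2.45%) had groups that did not overlap, 1.67% lower and 0.784% higher, and 1 of 30 members is close to that share.

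Acadl, a dehydrogenase of long chains, had the largest difference and a wide spread. It read 9.27, 9.39, 9.49 and 9.25 in the controls and 9.23, 9.05, 9.45 and 8.97 in the labelled nulls. Labelled-null array 3 lay among the highest values of all, while the other 3 of that group lay below every control array, array 1 by a narrow margin. The difference was -0.18 (SE 0.103, 95% interval -0.41 to 0.052, limma adjusted p = 0.9995), and it ran from -0.27 without labelled-null array 3 to -0.11 without labelled-null array 4.

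For the other dehydrogenases the intervals all held 0. Acadvl, the very-long-chain enzyme of the inner membrane, read 8.29, 8.42, 8.15 and 8.27 in the controls and 8.14, 8.15, 8.26 and 8.22 in the labelled nulls, a difference of -0.092. Acadm, the medium-chain enzyme, read 9.86, 9.95, 9.97 and 9.62 in the controls and 9.71, 9.96, 9.93 and 9.95 in the labelled nulls, a difference of 0.039. For Acadm a single array was low in each group, control array 4 and labelled-null array 1, and the other 6 lay between 9.86 and 9.97. Acad9, which also serves the assembly of respiratory complex I, read 9.74, 9.55, 9.68 and 9.64 in the controls and 9.59, 9.80, 9.62 and 10.03 in the labelled nulls. Its difference was 0.10, and 0.014 without labelled-null array 4, the highest of the 8.

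**Figure D3:**
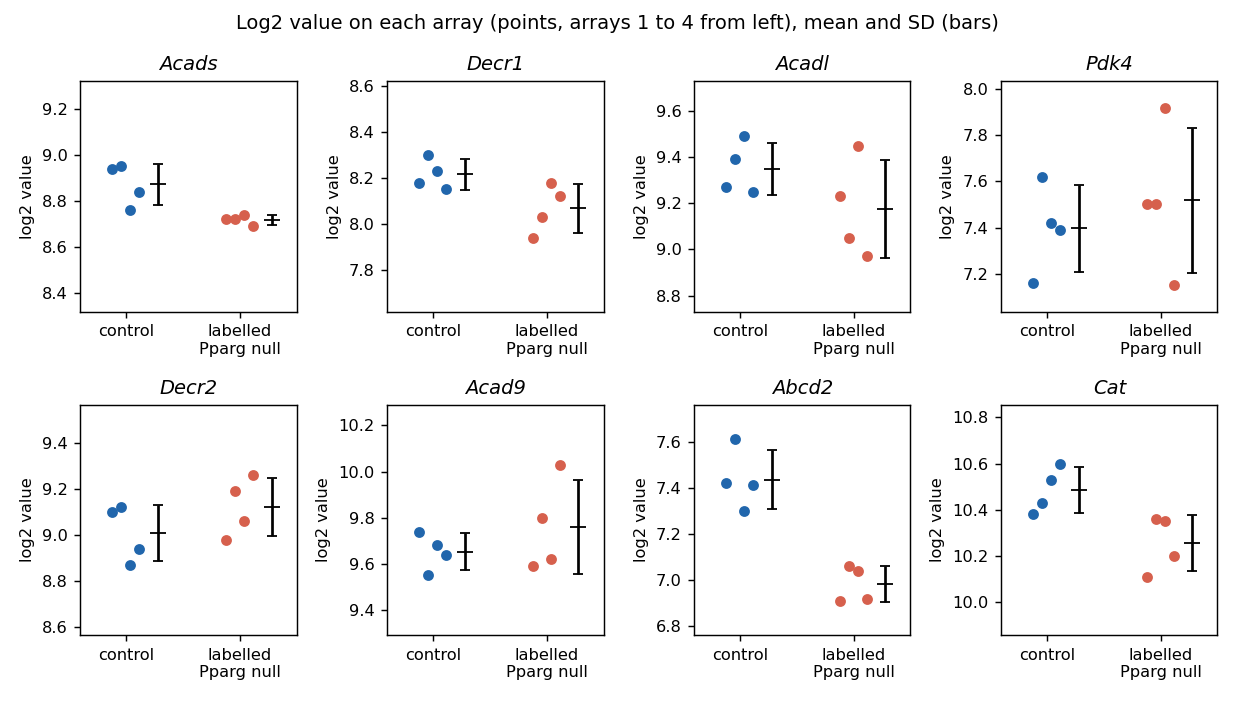
Log2 value on each of the 4 control arrays and 4 labelled nulls (points, arrays 1 to 4 from left), with the mean and SD (bars), for 6 members and for the peroxisomal genes Abcd2 and Cat. Every panel spans 1 log2 unit; the groups do not overlap for Acads, Abcd2 and Cat.

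Hydration, the second dehydrogenation and thiolysis are carried out by Echs1, Hadh, Acaa2 and the trifunctional protein of Hadha and Hadhb. All 5 lay slightly above control, by 0.0096 (Echs1) to 0.071 (Acaa2), each with a 95% interval that held 0. Hadha, the alpha subunit of the trifunctional protein, was among the tightest, at 10.51, 10.59, 10.58 and 10.61 in the controls and 10.56, 10.58, 10.64 and 10.61 in the labelled nulls. Its difference was 0.022, with an interval of -0.080 to 0.12. Hadhb, the beta subunit, was read by 2 clusters, and the brighter one differed by 0.057. Hadh, Hadhb, Acaa2 and Echs1 were each highest on labelled-null array 4, and Hadha on labelled-null array 3. In the fit without labelled-null array 4, 3 of the 5 lay above control, and the mean difference of the 5 was 0.0011.

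Labelled-null array 4 stood apart from the rest of the 8 arrays on the first principal component of autosomal genes (-21.7, with the others between -8.62 and 9.02). It was the highest array for 9 of the 30 members and for 21.9% of all tested genes. These 9 members were Acad9, Hadh, Hadhb, Acaa2, Echs1, Etfdh, Acox3, Hsd17b4 and Decr2. Of these, 7 lay above control in the comparison of all 8 arrays and 5 without that array. On the same array the mean of the skeletal muscle markers was lowest of the 8 (-0.21 relative to all arrays) and that of the suprabasal epidermal markers highest (0.19). The part of either in the members' values on that array was not tested.

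Unsaturated chains need auxiliary enzymes. Decr1, the mitochondrial dienoyl-CoA reductase, read 8.18, 8.30, 8.23 and 8.15 in the controls and 7.94, 8.03, 8.18 and 8.12 in the labelled nulls. The groups overlapped, since labelled-null array 3 lay above control array 4. The difference was -0.14 (SE 0.0634, 95% interval -0.29 to -0.0020), with a limma p of 0.0469 before and 0.9995 after adjustment. The peroxisomal counterpart, Decr2, had a positive difference. It read 9.10, 9.12, 8.87 and 8.94 in the controls and 8.98, 9.19, 9.06 and 9.26 in the labelled nulls. That difference was 0.12, with an interval of -0.061 to 0.29. The isomerases Eci1 and Eci2, which move double bonds into place, differed by 0.00030 and 0.011.

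Electrons from the dehydrogenases pass through the electron transfer flavoprotein, made of Etfa and Etfb, to Etfdh in the inner membrane. The differences were -0.021 for Etfa, -0.048 for Etfb and 0.047 for Etfdh, and the groups overlapped for each. Etfb was tight in the controls, between 10.67 and 10.72, and ran from 10.58 to 10.72 in the labelled nulls.

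Pdk4, the kinase that restrains pyruvate oxidation when fat is burned, is a well-known PPAR target and had the widest spread of the 30 tested members. It read 7.16, 7.62, 7.42 and 7.39 in the controls and 7.50, 7.50, 7.92 and 7.15 in the labelled nulls. The lowest and the highest of the 8 values were both on labelled nulls. The difference was 0.12 with an interval of -0.21 to 0.46, and it was -0.011 without labelled-null array 3. Ucp3, an uncoupling protein relative of muscle and brown fat, was dim, at 6.10, 6.02, 5.78 and 6.13 in the controls and 6.05, 5.96, 6.03 and 5.89 in the labelled nulls. Its difference was -0.024, and the brightness filter, a percentile and not a detection limit, stood at 5.62 to 5.67 on these arrays. How far below its values this cluster could have read was not tested.

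The peroxisomal pathway starts with acyl-CoA oxidases. Acox2, the oxidase of branched chains and bile acid intermediates, was dim as well, between 5.79 and 5.99 in the controls and between 5.69 and 5.87 in the labelled nulls. Acox3, another branched-chain oxidase, differed by -0.014. Ehhadh, the L-bifunctional enzyme, read 6.43, 6.41, 6.49 and 6.37 in the controls and 6.39, 6.52, 6.24 and 6.36 in the labelled nulls. That was a difference of -0.054, and the lowest and highest of the 8 values were both on labelled nulls.

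Hsd17b4, the D-bifunctional enzyme, read 9.20, 9.14, 9.24 and 9.11 in the controls and 9.08, 9.18, 9.09 and 9.28 in the labelled nulls, a difference of -0.015. Acaa1a, a peroxisomal thiolase, read between 7.97 and 8.02 on all 4 control arrays and 8.13, 7.83, 7.85 and 7.92 in the labelled nulls. Its control arrays were tight, with an SD of 0.02 against 0.14, and the difference was -0.058. It was -0.13 without labelled-null array 1, where the groups no longer overlapped, -0.024 without labelled-null array 2 and -0.031 without labelled-null array 3. Acaa1a and Acaa1b are closely related copies, and probes of 1 may bind transcripts of the other. Acaa1b read between 3.90 and 4.78 on all arrays, above the brightness filter on 0 of 8. Pex11a, which promotes the division of peroxisomes and is a known PPARalpha target, differed by -0.018.

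Promoters of the members were searched for the PPAR response element, AGGTCANAGGTCA, on both strands. The windows ran from 250 bases before to 50 after each start, from RefSeq on GRCm38.p6, and 27 members had at least 1, Ucp2 among them, with 28 windows in all. None of these 27 held the full element, which 13 of 32851 windows held (0.0396%). With so rare a sequence 0 was the likely count for 27 genes, so no conclusion is drawn from it. Variants of the element and sites outside the windows were not searched. The single repeat unit AGGTCA, which is contained in the full element, stood in 6 of the 27 members (22.2%), a share of genes, and in 16.3% of all windows, a share of windows. These 6 were Acadm, Cpt1c, Ucp3, Echs1, Acadvl and Cpt1a. The windows of Acads (chr5:115119297-115119596, minus strand), the member whose groups did not overlap, of Acadm (chr3:153944594-153944893, minus strand), a textbook PPAR target, and of Ucp3 (chr7:100472741-100473040, plus strand), with 2 units, are shown from 5′ to 3′ with the unit in capitals (AGGTCA, or TGACCT where it lies on the other strand).
Acads: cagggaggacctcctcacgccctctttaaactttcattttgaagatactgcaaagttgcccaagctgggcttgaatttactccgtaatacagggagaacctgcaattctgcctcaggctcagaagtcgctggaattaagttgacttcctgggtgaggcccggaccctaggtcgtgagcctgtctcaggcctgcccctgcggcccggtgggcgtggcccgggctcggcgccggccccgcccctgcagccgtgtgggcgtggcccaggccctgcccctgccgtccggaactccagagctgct
Acadm: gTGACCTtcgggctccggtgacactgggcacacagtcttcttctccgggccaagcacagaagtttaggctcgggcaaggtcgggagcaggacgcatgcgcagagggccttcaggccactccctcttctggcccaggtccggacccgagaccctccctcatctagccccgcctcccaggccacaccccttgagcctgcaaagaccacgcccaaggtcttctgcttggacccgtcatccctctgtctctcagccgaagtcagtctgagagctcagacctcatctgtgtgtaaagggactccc
Ucp3: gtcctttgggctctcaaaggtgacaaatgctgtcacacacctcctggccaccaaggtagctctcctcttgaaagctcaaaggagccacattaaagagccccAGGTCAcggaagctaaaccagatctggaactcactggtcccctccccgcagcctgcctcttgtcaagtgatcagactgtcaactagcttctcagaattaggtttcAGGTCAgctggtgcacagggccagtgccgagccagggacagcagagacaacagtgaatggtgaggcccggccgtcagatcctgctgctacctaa

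Genes around the pathway, from lists of general knowledge chosen with earlier results of these data known, gave few differences. Of 13 tested peroxisomal genes outside the members, 6 lay below control and 7 above, 0 passed the limma threshold and 2 had an unadjusted p under 0.05, Abcd2 and Cat. Abcd2, the peroxisomal importer of very-long-chain acyl-CoA that is abundant in fat, had the largest difference of the oxidation genes looked at. It read 7.42, 7.61, 7.30 and 7.41 in the controls and 6.91, 7.06, 7.04 and 6.92 in the labelled nulls. Every array labelled Pparg null lay below every control array. The difference of -0.45 (SE 0.0724, 95% interval -0.61 to -0.29), or a 1.37-fold lower level, missed limma's threshold (adjusted p = 0.0865). Alternative fits gave adjusted p-values of 0.0718 to 0.346 for it.

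Cat, the catalase that removes the hydrogen peroxide of peroxisomal oxidation, read 10.38, 10.43, 10.53 and 10.60 in the controls and 10.11, 10.36, 10.35 and 10.20 in the labelled nulls. The groups did not overlap, and the difference was -0.23 (SE 0.0736), with an exact permutation p of 0.0286 and a limma p of 0.0120 before and 0.9995 after adjustment. Abcd2 and Cat were named because their unadjusted limma p lay under 0.05. The white adipocyte markers lay lower on the same arrays, at 7.37 ± 0.08 against 8.13 ± 0.13 as a mean (SD, n = 4). The 2 tested sebocyte markers also lay lower, at 5.77 ± 0.04 against 6.05 ± 0.14. The means of the other marker lists overlapped between the groups. The part of either cell type in Abcd2 and Cat was not tested.

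Of 19 tested mitochondrial genes outside the members, 8 lay below control and 11 above, and Pdk1, another kinase of pyruvate dehydrogenase, was the 1 with an unadjusted limma p under 0.05 (difference 0.17, adjusted p = 0.9995). Its control arrays read 8.90, 8.91, 8.91 and 8.61 and the others 8.96, 9.09, 8.94 and 9.02. Peroxisome biogenesis genes were split evenly, with 6 of 12 below control and a median difference of 0.0010. For the citrate cycle and respiratory chain, 15 of 25 lay below control, with a median of -0.015 and a largest difference of 0.12 in size, and Cox6c, a subunit of cytochrome c oxidase, had groups that did not overlap (-0.050). Genes of mitochondrial mass (7 of 10 below, median -0.018) and of ketone bodies (1 of 4 below, median 0.054) had 0 genes past the limma threshold and 0 with an unadjusted p under 0.05.

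Of the receptors known to act on these genes, Ppara read 6.44 ± 0.19 in the controls and 6.43 ± 0.08 in the labelled nulls, and Ppard read 9.35 ± 0.13 and 9.34 ± 0.12 (log2 values, SD, n = 4). Ppargc1a, a coactivator of oxidative genes, read 7.25 ± 0.13 and 7.27 ± 0.20. Ucp1, the defining uncoupling protein of brown fat, lay between 5.21 and 5.54, under the brightness filter on all 8 arrays. The 9 tested brown adipocyte markers had a median difference of -0.0040, and 0 passed the limma threshold. Cidea, a lipid droplet protein, had groups that did not overlap, at 6.10 ± 0.08 in the controls and 6.34 ± 0.05 in the labelled nulls (log2 values, SD, n = 4; limma adjusted p = 0.58).

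Skeletal muscle markers varied from array to array within both groups, and the members were set against them. The mean of 12 muscle markers did not separate the groups, at 10.58 ± 0.10 in the controls and 10.58 ± 0.21 in the labelled nulls (log2 values, SD, n = 4), yet it ran from 10.36 on labelled-null array 4 to 10.81 on labelled-null array 3. The same arrays, 4 and 3, were lowest and highest on the first principal component of autosomal genes (-21.7 and 9.02). The part of that component in the correlations was not tested, and correlations are given for the members alone. Across the 8 arrays Crat followed the muscle mean most closely. Crat read 9.73, 9.94, 9.74 and 9.79 in the controls and 9.81, 9.68, 9.99 and 9.64 in the labelled nulls, with its highest and lowest values on the same arrays as the muscle mean. Pearson's r was 0.93 (exact permutation p = 0.000273, 0.00819 after Benjamini-Hochberg adjustment over 30 members) and Spearman's rho was 0.98 (exact permutation p = 0.000397, adjusted 0.0119). Without the 2 arrays farthest from the median of the muscle mean, labelled-null arrays 3 and 4, r was 0.83. After the group means were removed it was 0.93, and each group by itself holds too few arrays for a test.

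Crat was the 1 member of 30 that passed this adjustment. The share of all tested genes that follow the muscle mean as closely was not computed. Whether Crat stands out among them is therefore not known. Pdk4 (r = 0.85, rho = 0.76) and Acadl (r = 0.76, rho = 0.71) came next on the positive side by r, with adjusted exact permutation p of 0.0625 and 0.126 for r and 0.196 and 0.216 for rho. Without the 2 farthest arrays their r was 0.60 and 0.53. On the negative side Acad9 lay lowest (r = -0.84, rho = -0.91, adjusted exact permutation p = 0.0611 and 0.0684), with r = -0.96 without these arrays. Acox3, Echs1, Hsd17b4 and Hadh followed, with r between -0.77 and -0.74 and the same adjusted exact permutation p for r as Acadl, 0.126. By rho, Etfb (0.74) stood before Acadl on the positive side. The 8 points of each relation share the arrays' scaling, and the 12 markers are from the same arrays. These correlations were chosen after their values were seen. The adjustment covers the 30 members and not the choice of muscle among the marker lists. With the muscle mean as a covariate, 0 of the 30 members passed the limma threshold.

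**Figure D4:**
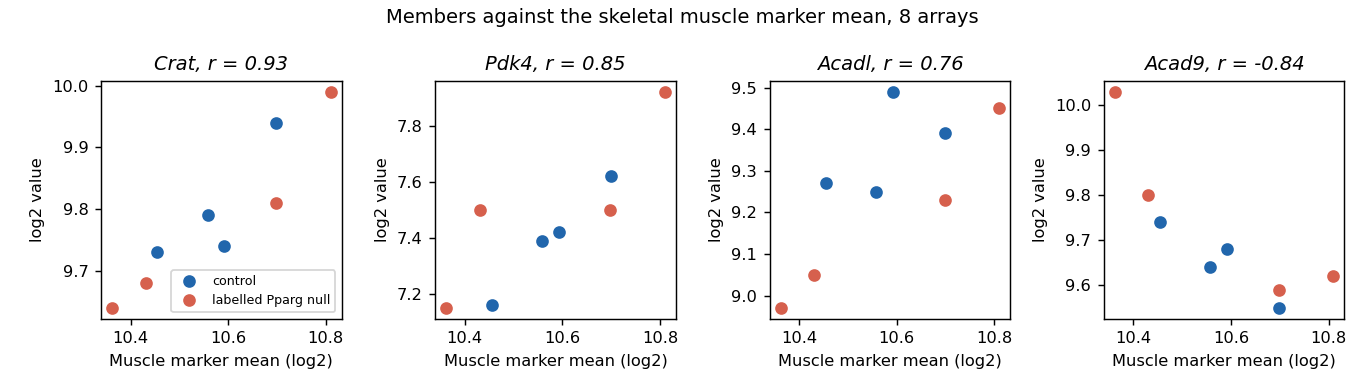
Log2 value of 4 members against the mean of 12 skeletal muscle markers (log2) on each of the 8 arrays, with control arrays and labelled nulls in different colours. Crat (r = 0.93), Pdk4 (r = 0.85) and Acadl (r = 0.76) lie higher where the muscle mean is higher, and Acad9 (r = -0.84) lies lower.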

How the data were processed

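Transcripts of 8 skin RNAs, 4 per group, were measured on single-colour arrays. The authors deposited log2 values. The submitters' processing notes name RMA and Affymetrix Expression Console, without a version or build. RMA's quantile step hides shifts that all transcripts share. Of 35556 clusters, 21789 carried 1 symbol, updated through gene IDs of a RefSeq table (GRCm38.p6) for 21698. A cluster was tested when above its array's 30th percentile on at least 4 of 8 arrays, the brightest standing for its gene. Groups came from the labels' titles. Differences were fitted with limma 3.58.1 (R 4.3.3, lmFit and eBayes, two-sided, Benjamini-Hochberg over 15174 genes, threshold 0.05) without covariates. The fit was tested on simulated data whose changes were larger than the difference of any member. That test does not show how often changes of the members' size would be called. Single values were tested by exact permutation over 70 assignments. The number of arrays limits the precision. Members and lists were chosen with earlier results of these data known. Values of every array are given for members with an unadjusted p under 0.05, groups that do not overlap or the 3 largest differences each way, and for defining enzymes. Crat and the muscle correlations were chosen after their values were seen. Alternatives were filters, scalings, priors, array weights, a replicate block, averaged clusters, Xist, muscle and suprabasal covariates, and leaving out arrays. Replicate numbers were not used as pairs.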

Additional observations from a re-analysis of the deposited data

Results flagged for a closer look

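In 3 of 70 groups of 4 values, 1 array lay far from the other 3 of its group, where chance gives about 1 in 20 groups, or 4. For Cpt2 this was control array 4, at 8.68 while its group otherwise spanned 8.88 to 8.92. For Acadm it was array 1 of the labelled nulls, at 9.71 beside a span of 9.93 to 9.96. For Hadhb it was control array 3, at 9.62 beside a span of 9.52 to 9.53.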

How the results depend on the processing

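The count of 0 members past the limma threshold, in either direction, held in all 20 alternative fits and at an adjusted p of 0.1, and the lowest adjusted p of any member was 0.90. Of 378 values of 19 named differences, 0 passed the threshold of 0.05. Abcd2, outside the members, lay under 0.1 in the main fit (limma adjusted p = 0.0865). Of the 378 values, 21 changed sign. Outside the fits without 1 array these were Slc25a20 with arrays centred on their medians (-0.0036) and, without control array 1 and labelled-null array 4, Hadha (-0.0038), Ucp3 (0.036) and Crat (0.0036); Crat was also at 0.0056 with the suprabasal covariate. Without 1 array the ranges were -0.0073 to 0.079 for Cpt1a, -0.11 to 0.0041 for Cpt2, -0.055 to 0.050 for Slc25a20, -0.037 to 0.097 for Acadm, -0.011 to 0.24 for Pdk4, -0.055 to 0.013 for Hsd17b4, -0.10 to 0.016 for Ucp3 and -0.089 to 0.029 for Crat. Centring put 20 of the 30 members below control, not 15. The count of all genes, 18, was 1 with the replicate block, 11 with the Xist covariate and 3 to 15 without 1 array; it was 4, 4 and 5 without control array 2, 3 or 4 and 5, 3 and 9 without labelled-null array 1, 2 or 3. The cause was not tested. Members whose groups did not overlap numbered 1 to 4 without 1 array, where 4.13% to 5.32% of all tested genes did not overlap: 4 without labelled-null array 3 (4.65% of all genes), 3 without labelled-null array 1 (5.21%) and 2 without control array 3 (5.32%). The peroxisomal mean difference was 0.0034 with the 50th percentile filter, which tests fewer genes. Same-numbered arrays deviated together with r = -0.31, 0.20, 0.050 and -0.030. These values cannot show whether such arrays share a litter or batch, which the labels do not name. The replicate block left 0 members past the threshold. The correlation of Crat with the muscle mean was 0.89 to 0.96 without 1 array. The muscle and suprabasal covariates were chosen after seeing the data. Dim clusters (Ucp3, Acox2, Acaa1b) may limit what could be seen of a lower level, which was not tested.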
